A study of Mus musculus with 24 samples.

Results

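The 39 genes described here build and watch over the site where a chromosome meets the spindle, and they were taken by symbol from the 43280 symbols of a mouse intestinal count table, where each was present. They comprise 3 genes for the centromeric histone and its loading, 11 of the inner kinetochore, 9 of the outer kinetochore, 2 subunits of the RZZ complex, 2 corona proteins, 3 of the SKA complex, 5 of the spindle checkpoint and 4 of the chromosomal passenger complex. RNA was sequenced from 4 populations sorted from small intestinal crypts of 6 male C57BL/6 littermates, all carrying the Lgr5-EGFP reporter. In 3 mice, neuregulin 1 (NRG1, a secreted ligand of the ErbB3 and ErbB4 receptor tyrosine kinases) was injected intraperitoneally at 7.5 µg every 12 h for 5 days. The other 3 mice received the vehicle PBS, and cells were collected on day 6. Mice were aged 15 weeks (replicates 1 and 2) or 11 weeks (replicate 3). Sorting left out dead cells by propidium iodide as well as CD31- and CD45-positive cells, then used EGFP brightness and CD24. The brightest gate, Lgr5high with low CD24, is labelled as stem cells of the crypt base. The next gates are Lgr5med, labelled immediate progenitors, and Lgr5low with low CD24, whose cells are labelled subsequent progenitors. Cells without EGFP form the gate Lgr5neg, labelled differentiated. The 8 groups therefore hold 3 libraries each, from 3 mice, and every mouse gave 1 library to each gate. The gates rest on a reporter and a surface protein, so each can hold cells in different cell cycle phases.

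A centromere is marked by nucleosomes that carry the histone H3 variant CENP-A in place of ordinary H3, and a network of inner kinetochore proteins stays bound to them through the cell cycle. As a cell enters mitosis, the outer kinetochore assembles on that network and its NDC80 complex grips the microtubules of the spindle. The spindle checkpoint holds back anaphase while any kinetochore is unattached, and the Aurora B kinase of the passenger complex releases faulty attachments. In the intestinal crypt, stem cells and their near progeny divide often and the cells that leave the crypt do not, and many of these genes are transcribed mainly in late S phase, G2 and mitosis.

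Promoters are shown for 4 members, because the members whose RNA was most and least changed by NRG1 in Lgr5high cells can be read side by side. Each run covers 250 bases before the RefSeq transcription start and 30 after it on GRCm38.p6, 5′ to 3′ along the gene. Capitals mark matches, on either strand, to 3 promoter elements known from cell cycle genes: the CHR element TTTGAA, the CCAAT box, and the E2F site written as TTCCCGC or TTGGCGC. Cenpa (chr5:30666636-30666915, plus strand) and Cenpe (chr3:135212313-135212592, plus strand) had the largest rises, and Zw10 (chr9:49055331-49055610, plus strand) and Dsn1 (chr2:157007046-157007325, minus strand) the smallest differences among members with a RefSeq promoter entry.
Cenpa: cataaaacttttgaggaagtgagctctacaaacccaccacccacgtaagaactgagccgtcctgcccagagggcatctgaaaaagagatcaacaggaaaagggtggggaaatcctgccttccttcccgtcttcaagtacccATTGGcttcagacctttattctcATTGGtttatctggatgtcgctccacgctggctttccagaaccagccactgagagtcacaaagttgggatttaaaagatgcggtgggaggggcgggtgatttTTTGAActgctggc
Cenpe: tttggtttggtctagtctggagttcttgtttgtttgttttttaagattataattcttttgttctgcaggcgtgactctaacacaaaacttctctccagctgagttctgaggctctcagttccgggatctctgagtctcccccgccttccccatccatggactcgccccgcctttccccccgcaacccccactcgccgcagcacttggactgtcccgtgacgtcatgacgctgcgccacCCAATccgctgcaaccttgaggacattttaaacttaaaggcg
Zw10: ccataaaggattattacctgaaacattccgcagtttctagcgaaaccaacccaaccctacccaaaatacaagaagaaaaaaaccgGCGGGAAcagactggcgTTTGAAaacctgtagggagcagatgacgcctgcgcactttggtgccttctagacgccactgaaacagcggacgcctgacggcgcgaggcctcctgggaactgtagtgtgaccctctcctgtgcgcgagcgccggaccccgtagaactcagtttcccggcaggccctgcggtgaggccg
Dsn1: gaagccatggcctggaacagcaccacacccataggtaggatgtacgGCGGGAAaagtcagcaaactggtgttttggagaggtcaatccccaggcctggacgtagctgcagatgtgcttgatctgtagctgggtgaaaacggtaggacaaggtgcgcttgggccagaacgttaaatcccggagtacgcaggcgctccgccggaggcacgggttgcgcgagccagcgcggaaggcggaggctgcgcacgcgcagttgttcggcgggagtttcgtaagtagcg

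The Cenpa promoter held a CHR match 17 bases after the start and a pair of CCAAT boxes, read on the opposite strand as ATTGG, at 109 and 86 bases before it. In Cenpe the only match in the 300-base window was a CCAAT box 12 bases before the start. Zw10 held a CHR match and an E2F match, and Dsn1 held an E2F match. RefSeq promoter entries were found for 33 of the 39 members, 36 entries in all, and the first entry of each gene was used. The CHR letters occurred in 16 of these 33 promoters (48.5%) and in 17.9% of all 32851 mouse promoters of the same length, 250 bases before to 50 bases after a start. CCAAT occurred in 23 (69.7%) against 37.4% of all, and the E2F letters in 8 (24.2%) against 6.81%. With any entry of a gene counted, CHR and CCAAT gave the same counts and E2F gave 9. Of the 14 members with an entry that rose under NRG1 in Lgr5high cells, 9 held CHR, 9 held CCAAT and 2 held E2F. Among the other 19, 7 held CHR, 14 held CCAAT and 6 held E2F. In 27 of the 33 promoters the 30 bases after the start lay in a transcript of the gene, in the same direction. For Cenpa the annotated gene begins at chr5:30666777, before the RefSeq start used here. For Zw10 it begins at chr9:49055613, after the last base printed here, so positions depend on the start chosen. A match is a description of letters and not a measured binding site.

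Library totals lay between 11176264 and 23343499 counts, with a median of 19660147, and the ribosomal RNAs of the mitochondrion took 37.6% to 62.4% of them. Levels below are CPM, counts brought to a common library size, scaled over all 24 libraries by TMM, a method that corrects for differences in RNA composition; at this depth 3 counts were worth 0.112 to 0.247 CPM. In PBS mice the 8 stem cell markers together stood at 2348 to 3454 CPM in Lgr5high, 758.3 to 1554 in Lgr5med, 333.4 to 375.7 in Lgr5low and 68.6 to 72.8 in Lgr5neg libraries, in the order of the gates. In bulk RNA of this kind, fewer cells of a type and less RNA per cell cannot be told apart.

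Summed over the 39 genes, RNA was highest in Lgr5high libraries of NRG1 mice and lowest in Lgr5neg libraries. In Lgr5high cells the sum was 1279, 1443 and 1252 CPM in the 3 PBS mice and 2117, 1791 and 2198 in the 3 NRG1 mice, so every NRG1 library lay above every PBS library. In Lgr5med cells the sums were 1228, 1227 and 1173 CPM under PBS and 1507, 1422 and 1388 under NRG1. In Lgr5low cells they were 1054, 1076 and 948.4 CPM under PBS and 1283, 1263 and 1098 under NRG1. Lgr5neg libraries held 218.5, 211.8 and 226.1 CPM under PBS and 279.5, 259.1 and 245.4 under NRG1. In each gate the NRG1 libraries were the higher and the groups did not overlap, but a sum is led by its most abundant genes, here Cenpe, Cenpf and Hjurp, and carries no test. The single genes were tested one by one.

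**Figure D1:**
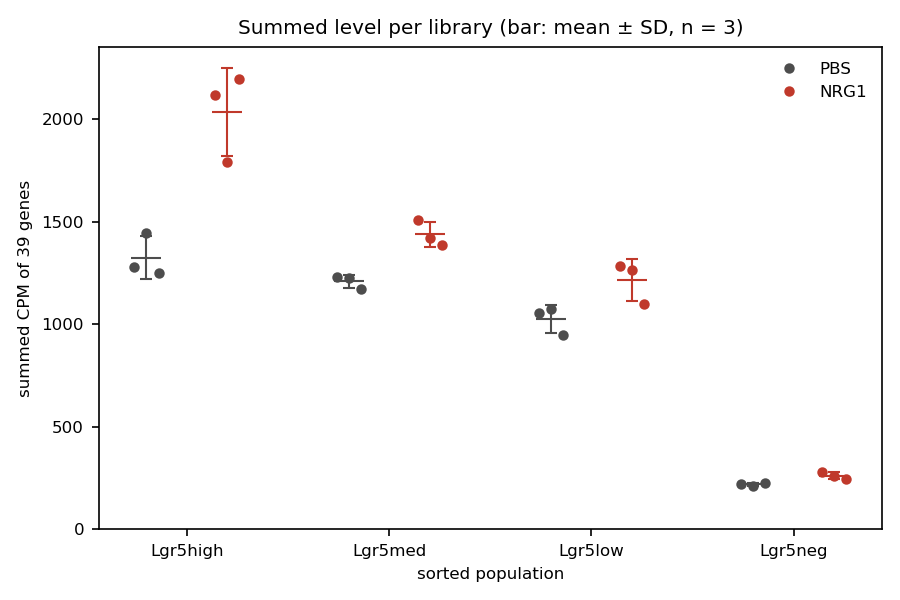
Summed CPM of the 39 genes (vertical axis, from 0) in each library, by sorted population (horizontal axis) and treatment (grey PBS, red NRG1). Points are libraries, horizontal bars with whiskers are mean ± SD of 3; the NRG1 sums of Lgr5high cells, 1791 to 2198, lie above the PBS sums, 1252 to 1443.

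NRG1 was compared with PBS within each gate by edgeR's quasi-likelihood test on 6 libraries, and a gene was called at a Benjamini-Hochberg adjusted p under 0.05 over all genes tested in that gate. In Lgr5high cells 17 of the 39 members rose and 0 fell. Among all 13322 genes tested there, 3.18% rose and 4.15% fell. The median change of the members was 0.47 on the log2 scale, with 34 above 0 and 5 below, and that of all genes was 0.01. By role, 2 of 3 genes of the centromeric histone and its loading rose, 3 of 11 of the inner kinetochore, 2 of 9 of the outer kinetochore, 1 of 2 RZZ subunits, both corona proteins, 1 of 3 SKA genes, 4 of 5 checkpoint genes and 2 of 4 passenger genes. At an unadjusted p under 0.05 the count was 22 (56.4%, against 22.8% of all genes), and DESeq2 called 19 higher, beside 4.15% of all genes. The changes below are as the test fitted them, on the log2 scale with SE, whereas CPM values use the scale of all libraries.

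**Figure D2:**
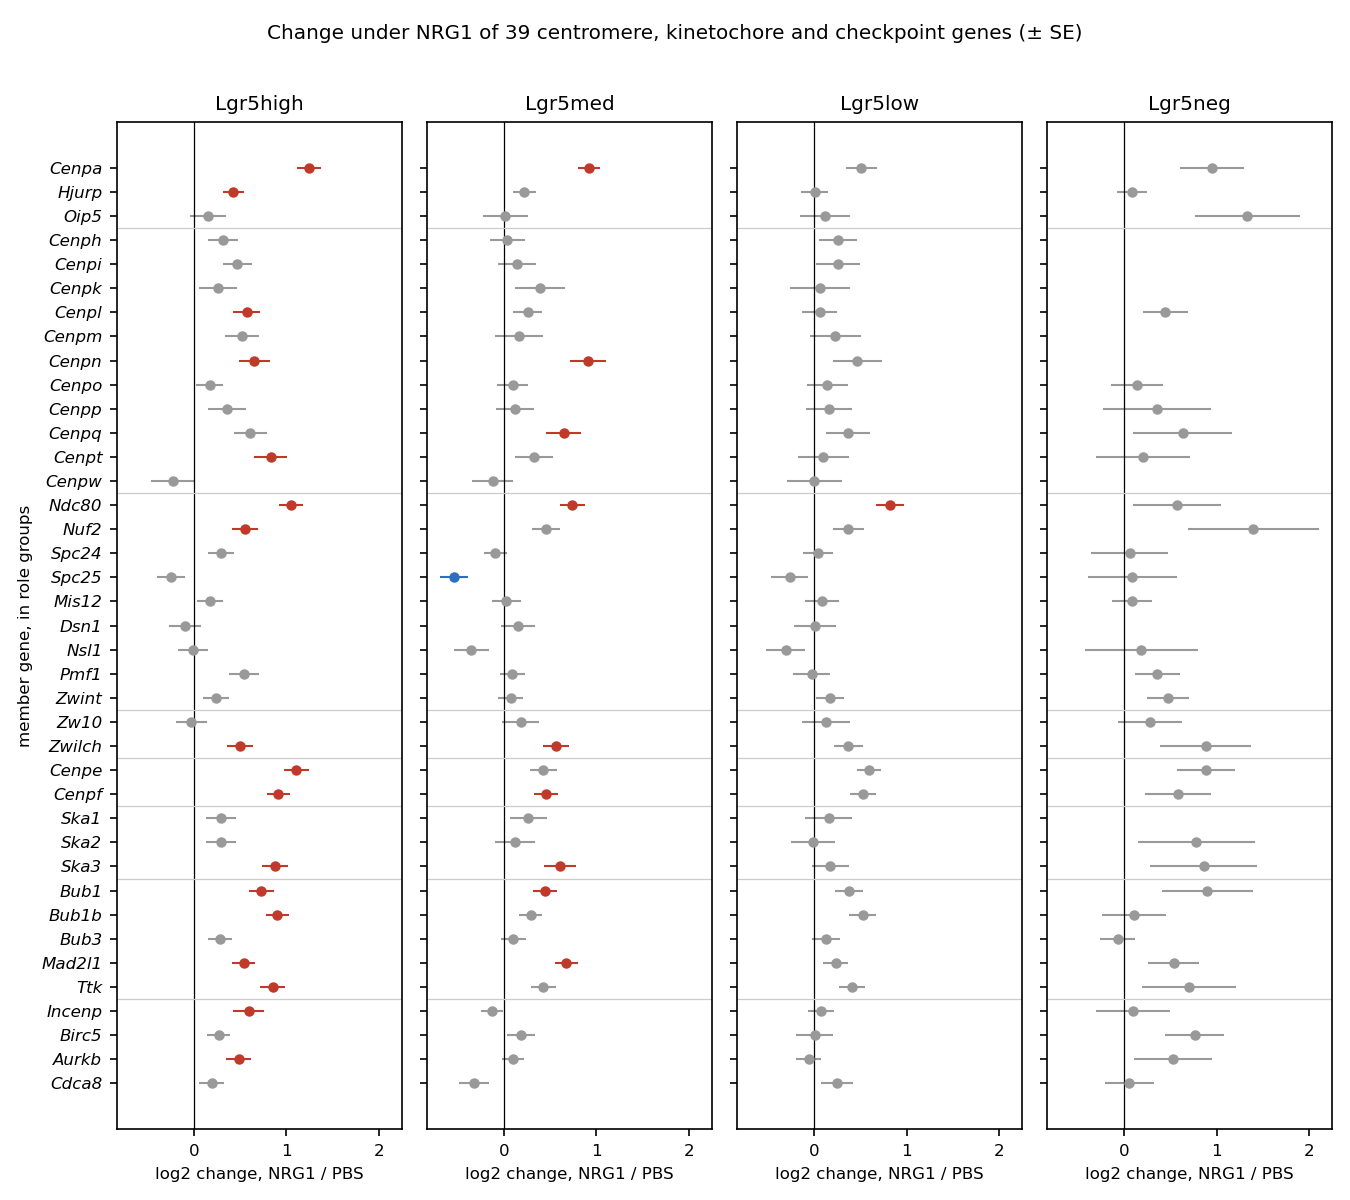
Log2 change of NRG1 over PBS with its SE (horizontal axis) for the 39 genes (vertical axis, grouped by role) in the 4 populations. Red points rose and the blue point fell at an adjusted p under 0.05, grey points did not pass, and 8 genes too low in Lgr5neg cells have no point there; in Lgr5high cells 34 of 39 points lie above 0.

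Cenpa, the gene of the centromeric histone itself (chr5:30666777-30674830), had the largest change of the set. Its level was 27.7, 34.3 and 25.3 CPM in the PBS libraries of Lgr5high cells and 66.0, 65.9 and 73.3 in the NRG1 libraries. The groups were far apart and each was narrow. The fitted change was 1.25 (SE 0.129, adjusted p = 9.11e-05, edgeR), a 2.37-fold rise. Hjurp, the chaperone that places CENP-A into chromatin, is the most abundant of the loading genes and moved less: 164, 162 and 166 CPM under PBS and 234, 193 and 226 under NRG1, a change of 0.43 (SE 0.113, adjusted p = 0.0302, edgeR). Oip5, a subunit of the Mis18 complex that licenses this loading, did not pass at 0.15 (SE 0.197).

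In the inner kinetochore, the network on CENP-A chromatin, Cenpt, Cenpn and Cenpl rose in Lgr5high cells. Cenpt, which reaches from centromeric DNA to the outer kinetochore, stood at 5.38, 5.56 and 4.99 CPM under PBS and at 9.95, 8.27 and 9.90 under NRG1. This was a change of 0.83 (SE 0.18, adjusted p = 0.0102, edgeR). Its histone-fold partner Cenpw gave -0.23 and did not pass. Cenpn, which binds the CENP-A nucleosome, changed by 0.65 (adjusted p = 0.0236), and its partner Cenpl by 0.57 (adjusted p = 0.0236). Cenpq missed the threshold at 0.61 (SE 0.18, adjusted p = 0.0501, edgeR). The other members of this layer, Cenph, Cenpi, Cenpk, Cenpm, Cenpo and Cenpp, gave changes between 0.17 and 0.52 that did not pass.

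The outer kinetochore moved unevenly, even within a single complex. Ndc80, the microtubule-binding head of the NDC80 complex (chr17:71496100-71526857), stood at 25.3, 23.1 and 27.6 CPM in PBS libraries and at 54.9, 43.0 and 57.8 in NRG1 libraries of Lgr5high cells. It rose 2.07-fold, by 1.05 on the log2 scale (SE 0.133, adjusted p = 0.000295, edgeR). Nuf2, which pairs with Ndc80 in the same head, rose by 0.55 (SE 0.143, adjusted p = 0.0267, edgeR). Spc24 and Spc25, the other two subunits, anchor the complex to the chromosome side. Their changes were 0.29 and -0.25, and neither passed. The MIS12 complex genes Mis12, Dsn1, Nsl1 and Pmf1 gave 0.17, -0.10, -0.01 and 0.54, and Zwint gave 0.24. None of these passed; Pmf1 came closest, at an adjusted p of 0.063.

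Both corona proteins rose. Cenpe, a kinesin motor that carries chromosomes toward the metaphase plate (chr3:135212537-135273611), was at 119, 168 and 127 CPM under PBS and at 307, 260.2 and 317 under NRG1 in Lgr5high cells. The change was 1.11 (SE 0.138, adjusted p = 0.000291, edgeR). Cenpf, a large coiled-coil protein of the corona (chr1:189640606-189688086), was at 144, 174 and 139 CPM under PBS and at 303, 255 and 296 under NRG1, a change of 0.91 (SE 0.124, adjusted p = 0.00041, edgeR). In both genes the lowest NRG1 library stood well above the highest PBS library. Of the RZZ subunits, which bring the dynein motor and checkpoint proteins to the corona, Zwilch rose by 0.49 (adjusted p = 0.0416) and Zw10 gave -0.03. In the SKA complex, which keeps kinetochores on shrinking microtubules, Ska3 (chr14:57806561-57826185) was at 22.2, 20.1 and 18.6 CPM under PBS and at 36.1, 31.5 and 43.1 under NRG1. Ska3 rose by 0.87 (SE 0.138, adjusted p = 0.00133, edgeR), while its partners Ska1 and Ska2 gave 0.29 and 0.30 and did not pass.

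Checkpoint genes rose together with these, apart from Bub3. Bub1b, which encodes the BubR1 component of the inhibitor of anaphase (chr2:118598211-118641591), was at 62.9, 68.5 and 50.2 CPM in PBS libraries and at 112, 105 and 119.6 in NRG1 libraries of Lgr5high cells. It rose by 0.90 (SE 0.125, adjusted p = 0.000493, edgeR). The kinase gene Ttk (also known as Mps1), which starts the checkpoint signal, rose by 0.85 (adjusted p = 0.00133). Bub1, the kinase that gathers checkpoint proteins on the outer kinetochore, rose by 0.73 (adjusted p = 0.00393). Mad2l1, the Mad2 protein that binds and blocks Cdc20, rose by 0.54 (adjusted p = 0.0144). Bub3, which binds Bub1 and BubR1, gave 0.28 and an adjusted p of 0.206. In the passenger complex, the scaffold Incenp rose by 0.59 (adjusted p = 0.0474) and the kinase Aurkb by 0.48 (adjusted p = 0.0362). Birc5 (survivin) and Cdca8 (borealin), which bring the complex to the centromere, gave 0.27 and 0.19 and did not pass.

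Of the 17 rises in Lgr5high cells, 9 stayed under the threshold whichever library was left out: Cenpa, Cenpt, Ndc80, Cenpe, Cenpf, Ska3, Bub1, Bub1b and Ttk. The other 8 (Hjurp, Cenpl, Cenpn, Nuf2, Zwilch, Mad2l1, Incenp, Aurkb) each lost their call without at least 1 library. Leaving out NRG1 replicate 3 gave a count of 9, and leaving out replicate 1 of either NRG1 or PBS gave 10. It was 8 in the 15-week-old mice alone, with 2 mice a group, and 10 with all 24 libraries in 1 model. Paneth cell markers fell in the same NRG1 libraries: Defa17 and Defa24 passed of 7 tested, and the summed level of the 7 was 2937, 3184 and 1828 CPM under PBS and 1623, 1878 and 1141 under NRG1. Their part in the members' rises was not tested.

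**Figure D3:**
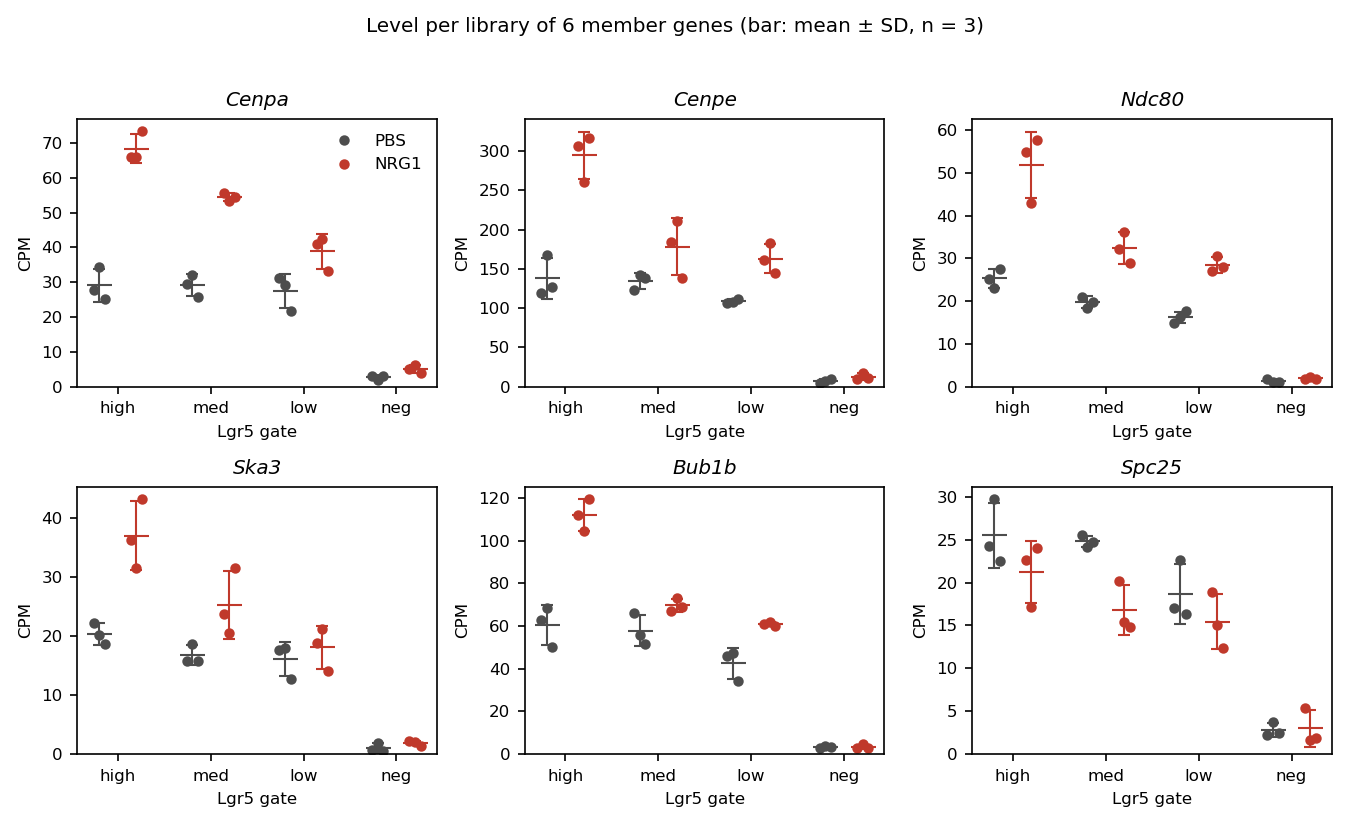
CPM (vertical axes, from 0) of 6 member genes in each library, by Lgr5 gate (horizontal axes) and treatment (grey PBS, red NRG1); points are libraries and bars are mean ± SD of 3. Cenpa, Cenpe, Ndc80, Ska3 and Bub1b are separated by treatment in the Lgr5high gate, and Spc25 is lower under NRG1 in the Lgr5med gate.

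In Lgr5med cells, the immediate progenitors, 9 of 39 members rose and 1 fell under NRG1. Among all 13394 genes tested 3.76% rose and 5.79% fell. The members' median change was 0.18, against 0.01 for all genes, and 33 were above 0. The rises were Cenpa in the histone group, Cenpn and Cenpq in the inner kinetochore, Ndc80 in the outer kinetochore, Zwilch, Cenpf, Ska3, and the checkpoint genes Bub1 and Mad2l1. No passenger gene passed.

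Cenpa again led, at 29.5, 32.2 and 25.8 CPM in PBS libraries and 55.7, 53.3 and 54.4 in NRG1 libraries of Lgr5med cells. The change was 0.92 (SE 0.123, adjusted p = 0.000759, edgeR), a 1.89-fold rise. Cenpn (chr8:116921730-116941507) was at 5.60, 4.73 and 5.08 CPM under PBS and at 10.8, 8.05 and 9.61 under NRG1, a change of 0.91 (SE 0.196, adjusted p = 0.012, edgeR). In neither gene did the groups overlap. Ndc80 was at 21.0, 18.3 and 19.9 CPM under PBS and at 32.1, 36.2 and 29.0 under NRG1, a change of 0.74 (SE 0.135, adjusted p = 0.00476, edgeR). Mad2l1 (chr6:66535390-66547220) was at 37.5, 39.6 and 39.6 CPM under PBS and at 60.5, 53.5 and 69.8 under NRG1, a change of 0.67 (SE 0.126, adjusted p = 0.00541, edgeR). Both were separated by treatment with no overlap.

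Cenpq, a subunit of the inner kinetochore complex that also holds CENP-O, CENP-P and CENP-U (chr17:40923051-40935047), was at 9.10, 8.37 and 7.71 CPM under PBS and at 10.9, 11.8 and 16.2 under NRG1 in Lgr5med cells. The change was 0.64 (SE 0.188, adjusted p = 0.044, edgeR), close to the 0.61 it gave in Lgr5high cells without passing there. Ska3 was at 15.8, 18.7 and 15.8 CPM under PBS and at 23.6, 20.4 and 31.5 under NRG1, a change of 0.61 (SE 0.169, adjusted p = 0.0379, edgeR). NRG1 replicate 3 was the highest library for both. Zwilch rose by 0.56 (adjusted p = 0.0205), Cenpf by 0.46 (adjusted p = 0.0403) and Bub1 by 0.44 (adjusted p = 0.0427).

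Spc25, the NDC80 complex subunit on the chromosome side (chr2:69193895-69206194), was the member that fell. Its level in Lgr5med cells was 25.5, 24.2 and 24.7 CPM under PBS and 20.2, 15.4 and 14.8 under NRG1, with no overlap. The change was -0.54 (SE 0.149, adjusted p = 0.0353, edgeR), a 1.46-fold fall. Ndc80 and Spc25, subunits of 1 complex, thus passed in opposite directions in the same 6 libraries. In Lgr5high and Lgr5low cells Spc25 gave -0.25 and -0.27 and did not pass, and in Lgr5neg cells it gave 0.09.

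The calls of Cenpa, Ndc80 and Mad2l1 in Lgr5med cells held whichever library was left out. The count of rises was 5 without PBS replicate 1, 3 without PBS replicate 2 and 3 without PBS replicate 3, and the fall of Spc25 was lost without any of PBS replicates 1, 2 and 3 (adjusted p = 0.0782, 0.104 and 0.119, edgeR) or NRG1 replicates 2 and 3 (0.136 and 0.0746). In the 15-week-old mice alone there were 4 rises and 0 falls, and with all 24 libraries in 1 model 5 rises and 0 falls. Of 10 enterocyte markers, 4 (Fabp1, Alpi, Fabp2 and Vil1) fell in the same comparison, their summed level being 2211, 2119 and 2542 CPM under PBS and 1140, 1647 and 1768 under NRG1. The stem cell markers, of which Rgmb rose, summed to 1554, 758.3 and 811 CPM under PBS and 1894, 1872 and 1456 under NRG1. The part of either in the members' changes was not tested.

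Between the gates, 8 members rose in both Lgr5high and Lgr5med cells, which is 8 of the 17 rises in the former and 8 of the 9 in the latter. They were Cenpa, Cenpn, Ndc80, Zwilch, Cenpf, Ska3, Bub1 and Mad2l1. The libraries of the 2 gates came from the same mice, so this overlap is a description. Over all genes, 167 rose in both gates, which is 39.5% of the 423 rises in Lgr5high and 33.1% of the 504 in Lgr5med cells. The members' 8 were 47.1% and 88.9% of theirs.

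In Lgr5low cells, the subsequent progenitors, 1 member rose, Ndc80. Of all 13326 genes tested 0.143% rose and 0.3% fell. Ndc80 was at 15.0, 16.2 and 17.6 CPM in PBS libraries and at 27.0, 30.6 and 27.9 in NRG1 libraries, a change of 0.82 (SE 0.15, adjusted p = 0.0369, edgeR). Its groups were well apart, yet the call was lost without any library but NRG1 replicate 1, with adjusted p-values from 0.0586 to 0.276. The members' median change was 0.16 against 0.00 for all genes, 34 of 39 were above 0, and 9 (23.1%) had an unadjusted p under 0.05, against 13.5% of all genes.

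In this gate the replicate numbers were taken to pair libraries of different mice, because same-numbered libraries correlated weakly, at 0.131 to 0.173. This pairing was read from these same data. The fit with the replicate number as a block called 5 members higher, while it called 1.31% of all genes higher. They were Ndc80 at 0.82 (adjusted p = 0.00398), Cenpe at 0.59 (adjusted p = 0.00907), Bub1b at 0.54 (adjusted p = 0.0252), Cenpf at 0.53 (adjusted p = 0.0319) and Cenpa at 0.52 (adjusted p = 0.0343). DESeq2 called 3 (Ndc80, Cenpe and Cenpf), and 0.833% of all genes, higher. Without the block, Cenpe stood at 106, 108 and 112 CPM under PBS and 162, 182 and 145 under NRG1, and its adjusted p was 0.0744. Lgr5low NRG1 replicates 1 and 3 had the lowest totals of the series, 11176264 and 12549951 counts. The stem cell markers Olfm4 and Igfbp4 rose in the same comparison, and the summed stem marker level was 375.7, 333.4 and 348.2 CPM under PBS and 613.2, 899.8 and 545 under NRG1. Their part was not tested.

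In Lgr5neg cells 31 members passed the filter on low counts and none was called, against 0.151% of all 11908 genes that rose and 0.176% that fell. The median change of the 31 was 0.47, against 0.01 for all genes, and 30 were above 0. An unadjusted p under 0.05 was reached by 4 (Cenpa, Cenpe, Oip5 and Birc5). This is 12.9%, near the 10.6% of all genes. DESeq2 called 0. The numbers were also taken to pair the libraries here. With the replicate block Cenpe was called at 0.90 (SE 0.232, adjusted p = 0.0144, edgeR), while 2.49% of all genes were called higher. With no filter on low counts 1 was called and with all 24 libraries in 1 model 3 were (Cenpa, Cenpe and Oip5). Cenpe was at 4.27, 7.41 and 9.13 CPM under PBS and at 9.61, 17.5 and 11.1 under NRG1. The NRG1 library where Cenpe was highest, replicate 2, also had the highest summed immune marker level, 390.7 CPM against 122.3 and 50.3 in the other NRG1 libraries and 114.2, 167.9 and 82.3 under PBS. Summed goblet markers were at 4853, 6859 and 5395 CPM under PBS and at 1232, 2530 and 3816 under NRG1, with no overlap. Of these 7 markers 0 passed the test, but all 7 had changes below 0 and 6 had an unadjusted p under 0.05. Mitochondrial ribosomal RNA took 62.4% of NRG1 replicate 1. The part of these in the members' values was not tested. The 8 members under the filter were Cenph, Cenpi, Cenpk, Cenpm, Cenpn, Cenpw, Dsn1 and Ska1. Cenpi, for example, had 2, 3 and 4 counts in the PBS libraries and 12, 15 and 0 in the NRG1 libraries, and was not tested there.

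Whether the NRG1 response itself differed between gates was tested as an interaction in 1 model of all 24 libraries. No member passed for Lgr5high against Lgr5med, where 0.0% of all 15045 genes were called higher and 0.0% lower. Nor did any for Lgr5high against Lgr5low, again with 0.0% and 0.0% of all genes, or for Lgr5high against Lgr5neg, with 0.0133% higher and 0.0399% lower. DESeq2 called 0 in each, and so did the fit with the mouse as a block. So these libraries do not show that the larger count of rises in Lgr5high cells is a larger response there. At an unadjusted p under 0.05 there were 4 members (10.3%, against 3.83% of all genes) for Lgr5med, all with the larger change in Lgr5high cells: Incenp by 0.73 (SE 0.263), Cenpe by 0.69 (SE 0.279), Bub1b by 0.62 (SE 0.209) and Ttk by 0.44 (SE 0.2). For Lgr5low there were 7 (17.9%, against 4.49% of all genes), namely Cenpa, Hjurp, Cenpt, Pmf1, Ska3, Ttk and Aurkb, with Cenpa at 0.73 (SE 0.231). For Lgr5neg there were 3 (7.69%, against 8.66% of all genes), Bub1b, Oip5 and Dsn1. Bub1b was at 0.78 and Oip5, in the other direction, at -1.19. Dsn1 is one of the members under the filter in Lgr5neg cells, so its value rests on very low counts there and is not given.

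A set of 13 members was tested in all 4 gates and called in none by edgeR without the replicate block. Other fits called 3 of them in a treatment comparison. Pmf1 was called in Lgr5high cells with the block (0.53, adjusted p = 0.0253), by DESeq2 (0.54, adjusted p = 0.0301), with no low-count filter, and without NRG1 replicate 2 or PBS replicate 3. Cdca8 was called lower in Lgr5med cells with the block (-0.35, adjusted p = 0.0481), and Oip5 higher in Lgr5neg cells with all 24 libraries in 1 model (1.33, adjusted p = 0.0465). In the loading group the set held Oip5, at 5.93, 5.37 and 5.26 CPM under PBS and 6.38, 5.19 and 6.66 under NRG1 in Lgr5high cells, and at 4.73, 4.41 and 4.94 against 5.56, 3.32 and 5.18 in Lgr5med cells. It was at 4.17, 3.95 and 3.13 against 4.62, 4.31 and 3.20 CPM in Lgr5low cells and at 0.449, 0.644 and 1.15 against 2.38, 1.25 and 2.04 in Lgr5neg cells, where the treatments did not overlap. Oip5 shares 9.7% of its exon bases with Nusap1 on the opposite strand, and without a stated strand setting reads of the shared stretch cannot be told apart.

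Cenpo and Cenpp, subunits of the same inner kinetochore complex as Cenpq, overlapped between treatments in each gate. Cenpo was at 11.2, 12.0 and 12.2 CPM under PBS and 14.2, 11.7 and 13.5 under NRG1 in Lgr5high cells, and at 10.7, 9.79 and 9.83 against 9.14, 12.3 and 10.4 in Lgr5med cells. It was at 8.42, 7.76 and 6.91 against 6.48, 10.1 and 8.58 CPM in Lgr5low cells and at 4.64, 4.83 and 4.20 against 4.76, 5.26 and 4.91 in Lgr5neg cells. Cenpo shares 22.5% of its exon bases with Adcy3 and Ptrhd1 on the other strand. Cenpp was at 11.0, 10.4 and 5.85 CPM under PBS and 10.6, 12.0 and 12.1 under NRG1 in Lgr5high cells, and at 12.2, 8.28 and 7.48 against 10.8, 9.70 and 9.47 in Lgr5med cells. It was at 6.58, 9.24 and 6.35 against 11.1, 7.29 and 6.40 CPM in Lgr5low cells and at 0.524, 1.37 and 1.56 against 2.14, 0.921 and 1.36 in Lgr5neg cells. Cenpp shares 12.6% of its exon bases with Aspn and Ippk.

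In the outer kinetochore the set held 5 members. Spc24 was at 38.3, 43.1 and 34.5 CPM under PBS and 55.1, 38.1 and 47.4 under NRG1 in Lgr5high cells, and at 42.2, 33.3 and 37.9 against 36.2, 36.2 and 32.4 in Lgr5med cells. It was at 32.2, 34.9 and 25.5 against 35.9, 30.9 and 28.1 CPM in Lgr5low cells and at 2.32, 2.42 and 1.56 against 2.30, 1.91 and 2.34 in Lgr5neg cells. Mis12 names the complex that joins inner and outer layers, and its treatments overlapped in each gate, as did those of Spc24. Mis12 was at 18.1, 26.9 and 23.6 CPM under PBS and 26.4, 25.2 and 25.1 under NRG1 in Lgr5high cells, and at 20.5, 23.4 and 19.3 against 17.9, 25.4 and 19.96 in Lgr5med cells. In Lgr5low cells Mis12 was at 13.7, 21.8 and 17.5 against 18.9, 20 and 16.7 CPM, and in Lgr5neg cells at 9.51, 9.82 and 8.39 against 8.46, 10.1 and 10.7.

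Nsl1, of the same complex, gave -0.36 in Lgr5med and -0.31 in Lgr5low cells and did not pass. It was at 13.1, 18.1 and 14.2 CPM under PBS and 16.6, 12.7 and 15.4 under NRG1 in Lgr5high cells, and at 11.3, 16.1 and 13.5 against 12.8, 9.10 and 9.75 in Lgr5med cells. In Lgr5low cells it was at 12.0, 13.99 and 10.2 against 12.1, 8.45 and 8.72 CPM, and in Lgr5neg cells at 1.05, 0.805 and 0.576 against 0.411, 1.12 and 1.21. Pmf1 was the nearest to a call of the 13, in Lgr5high cells. It stood there at 26.6, 26.3 and 34.4 CPM under PBS and 51.5, 31.8 and 42.8 under NRG1, so that a single NRG1 library lay within the PBS range, and at 27.1, 25.3 and 26.1 against 32.0, 24.5 and 25.8 in Lgr5med cells. In Lgr5low cells Pmf1 was at 34.6, 21.6 and 20.9 against 28.3, 24.5 and 22.8 CPM, and in Lgr5neg cells at 9.59, 9.02 and 6.25 against 10.5, 9.01 and 12.2. Zwint links the RZZ complex to the outer kinetochore. It was at 21.5, 19.7 and 22.4 CPM under PBS and 29.6, 21.8 and 22.9 under NRG1 in Lgr5high cells, and at 19.2, 21.8 and 22.8 against 24.02, 20.5 and 21.8 in Lgr5med cells. In Lgr5low cells Zwint was at 19.5, 19.8 and 18.7 against 24.4, 20.6 and 20.2 CPM, and in Lgr5neg cells at 8.61, 9.50 and 7.65 against 11.3, 14.1 and 9.98. Its treatments did not overlap in the Lgr5low and Lgr5neg gates, at adjusted p-values of 0.664 and 0.49.

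Zw10, which also acts in membrane traffic between the endoplasmic reticulum and the Golgi, did not pass in any gate. It was at 9.26, 8.15 and 9.62 CPM under PBS and 9.70, 7.81 and 8.75 under NRG1 in Lgr5high cells, and at 6.96, 7.79 and 10.1 against 10.3, 7.46 and 9.94 in Lgr5med cells. In Lgr5low cells it was at 4.50, 8.38 and 9.34 against 8.34, 8.11 and 7.63 CPM, and in Lgr5neg cells at 8.69, 4.27 and 5.92 against 11.4, 6.12 and 5.21. Its treatments overlapped in all 4 gates. Ska2 was at 10.6, 8.41 and 8.76 CPM under PBS and 11.4, 10.6 and 11.7 under NRG1 in Lgr5high cells, and at 9.46, 8.61 and 6.21 against 10.5, 7.23 and 8.32 in Lgr5med cells. In Lgr5low cells Ska2 was at 5.04, 8.07 and 5.56 against 6.24, 6.29 and 5.82 CPM, and in Lgr5neg cells at 0.674, 1.29 and 0.247 against 0.986, 1.38 and 1.44. Its gene shares 10.1% of its exon bases with Gm11491 on the other strand.

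Bub3, the remaining checkpoint gene, was at 43.3, 49.6 and 44.7 CPM under PBS and 51.6, 47.9 and 66.2 under NRG1 in Lgr5high cells, and at 45.7, 45.2 and 40.7 against 54.8, 38.97 and 45.7 in Lgr5med cells. In Lgr5low cells it was at 35.2, 35.9 and 35.8 against 46.8, 36.8 and 32.6 CPM, and in Lgr5neg cells at 17.7, 14.2 and 19.4 against 17.6, 14.5 and 16.6. Bub3 had the highest level of the 5 checkpoint genes in Lgr5neg cells. Birc5 was at 37.2, 52.2 and 44.3 CPM under PBS and 55.3, 52.2 and 51.7 under NRG1 in Lgr5high cells, and at 45.3, 49.8 and 41.7 against 62.5, 42.0 and 48.9 in Lgr5med cells. In Lgr5low cells Birc5 was at 45.3, 53.4 and 33.3 against 57.1, 38.4 and 36.6 CPM, and in Lgr5neg cells at 4.27, 3.46 and 2.30 against 6.65, 5.26 and 5.06. In Lgr5neg libraries its treatments did not overlap, at an adjusted p of 0.409. Cdca8 was at 62.9, 72.8 and 53.1 CPM under PBS and 76.7, 60.2 and 77.0 under NRG1 in Lgr5high cells, and at 67.5, 61.2 and 60.0 against 61.3, 50.8 and 36.6 in Lgr5med cells. In Lgr5low cells Cdca8 was at 40.6, 51.5 and 36.3 against 47.9, 61.6 and 41.9 CPM, and in Lgr5neg cells at 5.69, 10.5 and 7.49 against 8.46, 7.76 and 8.31. Its fitted change was -0.33 in Lgr5med cells and 0.25 in Lgr5low cells, neither of which passed.

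Neighbouring gates were compared within each treatment, in 1 model of the 12 libraries of that treatment. Unless the block is named, this model left out the mouse, so its SE and p-values ignore that the gates share mice. Along the gates of PBS mice the members' mean sum declined from 1325 CPM in Lgr5high to 1209 in Lgr5med and 1026 in Lgr5low cells. In the Lgr5neg gate it was 218.8 CPM, and nearly all members dropped there. Lgr5high was not tested against Lgr5low. Between Lgr5high and Lgr5med cells of PBS mice no member was called by edgeR or by DESeq2, while 2.44% of all 14203 genes were higher and 6.72% lower in Lgr5high. The members' median difference was 0.16 and 4 (Cenpn, Ndc80, Cenpf and Mad2l1) had an unadjusted p under 0.05. This is 10.3%, below the 21.5% of all genes. Between Lgr5med and Lgr5low cells of PBS mice again no member was called by edgeR, with 2.0% of all genes higher and 5.59% lower in Lgr5med. There the median was 0.28, 37 of 39 members were above 0 and 11 (28.2%) had an unadjusted p under 0.05, against 20.9% of all genes. Because the gates come from the same mice, the fit with the mouse as a block applies. It called 3.44% of all genes and 4 members higher in Lgr5med: Cdca8 by 0.57 (adjusted p = 0.0143), Incenp by 0.47 (adjusted p = 0.0497), Bub1b by 0.45 (adjusted p = 0.0296) and Cenpf by 0.44 (adjusted p = 0.0343). DESeq2 called 2 higher, beside 3.68% of all genes.

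In NRG1 mice the Lgr5high libraries were above the Lgr5med libraries for 5 members, beside 0.594% of all 14307 genes that were higher and 2.52% that were lower. Incenp was at 81.3, 65.4 and 82.1 CPM in the Lgr5high and at 46.2, 50.5 and 43.5 in the Lgr5med libraries, a difference of 0.68 (SE 0.173, adjusted p = 0.0388, edgeR). Bub1b was at 112, 105 and 119.6 CPM against 67.2, 73.0 and 69.0, a difference of 0.66 (SE 0.132, adjusted p = 0.0109, edgeR). Ttk was at 63.9, 60.0 and 79.0 CPM against 37.3, 40.4 and 48.6, a difference of 0.66 (SE 0.144, adjusted p = 0.0176, edgeR). For these 3 genes the lowest Lgr5high library was above the highest Lgr5med library. Ndc80 differed by 0.65 (adjusted p = 0.0182) and Aurkb by 0.58 (adjusted p = 0.0399). None of the 5 calls held whichever library was left out: without Lgr5high NRG1 replicate 1 or 3 the count was 0, and it was 2, 2 and 1 without Lgr5med NRG1 replicates 1, 2 and 3, 3 without Lgr5low NRG1 replicate 2 and 8 without Lgr5neg NRG1 replicate 1. With the mouse as a block 9 were called, the 5 and also Cenpl, Pmf1, Cenpe and Cenpf, beside 1.79% of all genes. The block gave the 5 lower adjusted p-values: Ttk 0.0017, Bub1b 0.00195, Ndc80 0.0063, Incenp 0.0152 and Aurkb 0.0164 (edgeR). The calls lost with a library left out are those of the fit without the block, and no library was left out of the blocked fit. DESeq2 called 10, beside 1.98% of all genes. Between Lgr5med and Lgr5low cells of NRG1 mice no member was called by edgeR, with 0.923% of all genes higher and 3.8% lower. The median difference was 0.27 and 7 members (17.9%) had an unadjusted p under 0.05, near the 18.5% of all genes. DESeq2 called 1 higher, beside 2.08% of all genes. The block called 1, Cenpa at 0.48 (SE 0.133, adjusted p = 0.0279), beside 2.13% of all genes.

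Between Lgr5low and Lgr5neg cells the difference was of another order. In PBS mice 38 of 39 members were higher in Lgr5low cells, with a median of 3.61 on the log2 scale. Of all 14203 genes 30.6% were higher and 25.3% lower, with a median of 0.11. In NRG1 mice 38 of 39 were higher, with a median of 2.90, beside 30.4% higher and 26.6% lower of all 14307 genes. Each of the 38 calls held in both treatments whichever library was left out. Of the 39 members, 8 (Cenph, Cenpi, Cenpk, Cenpm, Cenpn, Cenpw, Dsn1 and Ska1) did not pass the low-count filter in Lgr5neg cells. They entered these models through the gates where they are higher. Their direction was largely set by that entry, so they add no support to the counts and medians that include them.

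**Figure D4:**
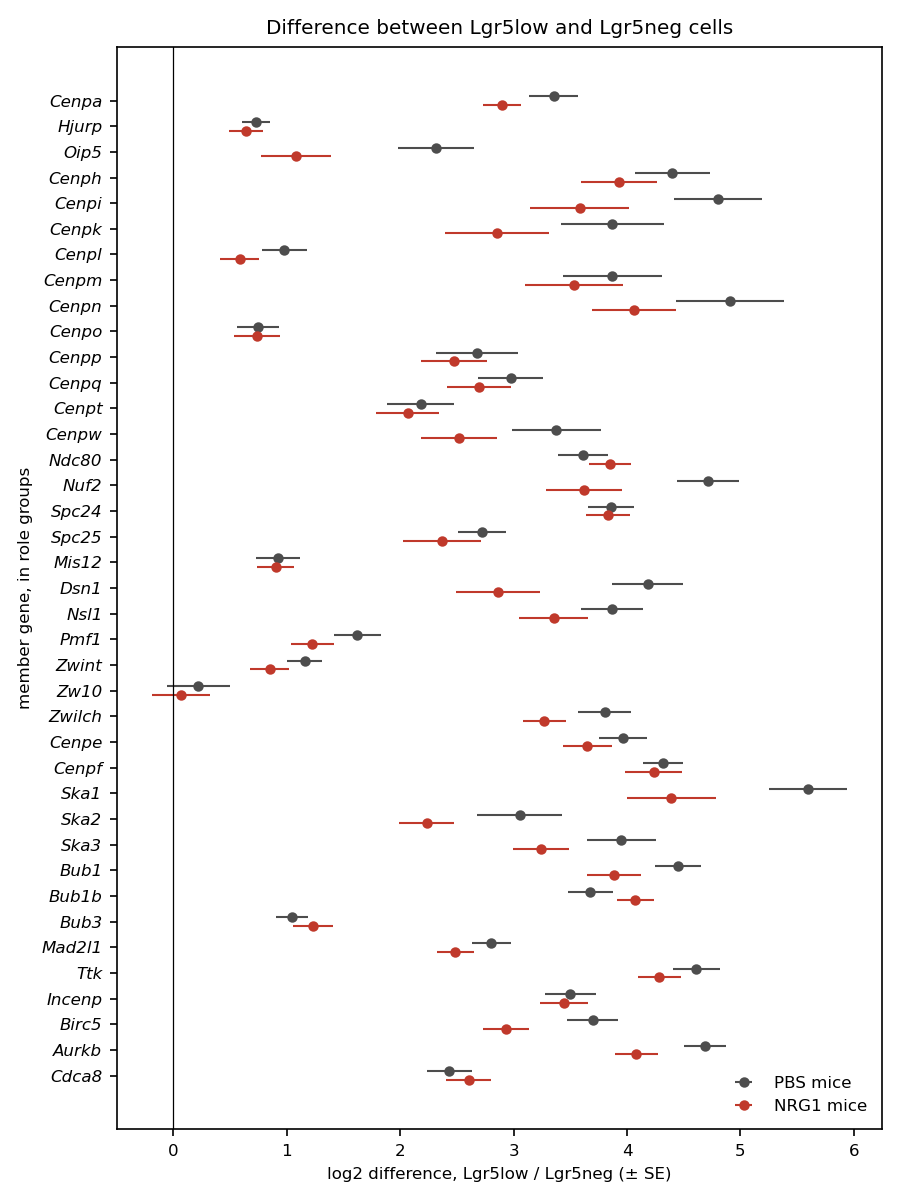
Log2 difference of Lgr5low over Lgr5neg cells with its SE (horizontal axis) for the 39 genes (vertical axis, grouped by role), in PBS mice (grey) and NRG1 mice (red). All points lie above 0; Zw10 is nearest to it, at 0.22 and 0.06, and Ska1 farthest, at 5.60 and 4.39.

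Ska1 (chr18:74195299-74207818) differed most. It was at 6.96, 7.04 and 6.16 CPM in Lgr5low and 0.075, 0.161 and 0.165 in Lgr5neg libraries of PBS mice, where 1, 2 and 2 counts were seen. The fitted difference was 5.60 (SE 0.347, adjusted p = 1.52e-10, edgeR). From the pooled counts, 456 and 5, the ratio was 51.1, with a 95% exact interval for counting error of 21.7 to 158. Cenpn was at 6.71, 3.72 and 4.44 CPM in Lgr5low and at 0.225, 0 and 0.247 in Lgr5neg libraries of PBS mice. It differed by 4.91 (SE 0.474, adjusted p = 4.99e-08, edgeR), with a ratio of 31.6 and an interval of 14.4 to 86.8. Cenpi, an inner kinetochore gene (chrX:134308084-134362639), was at 8.25, 7.13 and 5.14 CPM against 0.15, 0.241 and 0.329, a difference of 4.80 (SE 0.385, adjusted p = 4.4e-09, edgeR). Its ratio was 29.1, with an interval of 15.2 to 63.9. With so few counts in Lgr5neg libraries, the order of these 3 is not settled by the data. All 3 are among the members that passed the filter only through the other gates.

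In NRG1 mice the largest differences were those of Ska1, Ttk and Cenpf. Ska1 was at 10.6, 6.29 and 5.67 CPM in Lgr5low and 0.411, 0.46 and 0.151 in Lgr5neg libraries, a difference of 4.39 (SE 0.395, adjusted p = 6.93e-08, edgeR). Ttk (chr9:83834689-83872389) was at 31.1, 33.4 and 33.7 CPM against 1.31, 1.78 and 1.81, a difference of 4.29 (SE 0.191, adjusted p = 5.37e-11, edgeR). Cenpf was at 125, 143 and 111 CPM against 3.70, 9.73 and 6.12, a difference of 4.23 (SE 0.254, adjusted p = 1.91e-09, edgeR). For all 3 the groups were far apart, but Ska1 passed the filter only through the other gates.

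A few members kept much of their level in Lgr5neg cells. Zw10 did not pass in either treatment, at 0.22 (SE 0.279) in PBS and 0.06 (SE 0.254) in NRG1 mice. Small but passing differences in PBS mice were those of Hjurp at 0.73, Cenpo at 0.74, Mis12 at 0.92, Cenpl at 0.98, Bub3 at 1.05 and Zwint at 1.16. Hjurp was at 176, 169 and 144 CPM in the Lgr5low and at 99.7, 85.2 and 108 in the Lgr5neg libraries of PBS mice, and it alone made up most of the summed level of its role group in Lgr5neg cells. By role, the medians in PBS mice ran from 2.01 for the RZZ subunits and 2.32 for the loading genes to 3.95 for the SKA complex and 4.14 for the corona proteins. Lgr5neg libraries also differed from the others in ways that the gate sets or that go beside it. All 8 immune markers were higher there in PBS mice, although the sort left out CD45-positive cells, with a summed level of 114.2, 167.9 and 82.3 CPM against 1.96, 3.50 and 2.48 in Lgr5low libraries. Enterocyte markers summed to 74130, 44240 and 63040 CPM against 7543, 4924 and 7312. Mitochondrial ribosomal RNA took 54.1% to 54.4% of the counts in Lgr5neg PBS libraries. The part of these in the members' differences was not tested.

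Levels of different genes can be compared per kilobase of exon. In Lgr5high libraries of PBS mice Aurkb was at 20.4 ± 1.29 CPM per kilobase, Hjurp at 19.7 ± 0.183 and Cenpe at 16.0 ± 3.04 (SD, n = 3), the highest of the set, and the first 2 did not differ beyond their spread. The lowest were Cenpt at 1.46 ± 0.0797, Cenpw at 1.202 ± 0.258 and Cenpk at 0.926 ± 0.12. Cenpa itself was at 4.96 ± 0.793 and Ndc80 at 3.90 ± 0.345. Within the NDC80 complex, Spc24 at 15.0 ± 1.67 and Spc25 at 8.01 ± 1.18 stood above Ndc80 and Nuf2 (3.49 ± 0.123). In Lgr5neg libraries of PBS mice Hjurp led at 11.7 ± 1.4, followed by Mis12 at 3.08 ± 0.25 and Bub3 at 2.44 ± 0.376, while Cenpn, Cenpi and Cenpk were at or below 0.0477. These lengths are those of the merged exons in the annotation, which can exceed the transcript a cell uses.

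Genes that act beside the members were followed as 4 further lists. Beside their counts stand the shares of all genes tested: 3.18% rose and 4.15% fell in Lgr5high cells, and 3.76% rose and 5.79% fell in Lgr5med cells. For other kinetochore and checkpoint genes, in Lgr5high cells, 10 of 20 tested rose under NRG1 and 0 fell, with a median of 0.58. The largest were Cdc20, the activator that the checkpoint restrains, at 1.34 (SE 0.14, adjusted p = 9.11e-05, edgeR), and the mitotic kinase Plk1 at 0.99 (SE 0.132, adjusted p = 0.000401, edgeR). In Lgr5med cells 5 of 20 rose, led by Mis18a at 0.72 (adjusted p = 0.0371) and Cenpc1 at 0.56 (adjusted p = 0.0119), and 2 fell, Cenpb at -0.53 (adjusted p = 0.0217) and Gsg2 (the histone kinase haspin) at -0.50 (adjusted p = 0.0409). Cohesin and separase genes moved less. In Lgr5high cells 2 of 15 rose, the separase gene Espl1 at 0.93 (SE 0.144, adjusted p = 0.00119, edgeR) and the cohesin subunit gene Rad21 at 0.54 (adjusted p = 0.0108), with a median of 0.10. In Lgr5med cells 2 of 15 rose, Esco1 at 0.48 (adjusted p = 0.0478) and Stag2 at 0.38 (adjusted p = 0.0458).

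Of the 18 genes listed with the anaphase-promoting complex, its regulators among them, 4 rose in Lgr5high cells (3.18% of all genes did) with a median of 0.14. This complex destroys cyclin B and securin once the checkpoint is satisfied. Ube2c, its ubiquitin-conjugating enzyme, rose by 1.15 (SE 0.164, adjusted p = 0.00114, edgeR) and the coactivator Fzr1 by 0.82 (adjusted p = 0.00405). In Lgr5med cells 3 rose, beside 3.76% of all genes, led by Cdc27 at 0.59 (adjusted p = 0.00716) and Ube2c at 0.53 (adjusted p = 0.0202). Replication licensing genes, most of which act in loading the helicase on DNA in G1, went the other way. In Lgr5high cells 8 of 11 fell, beside 4.15% of all genes, and 0 rose, with a median of -0.72 and all 11 below 0. The largest falls were Cdc6 at -1.43 (SE 0.184, adjusted p = 0.000332, edgeR) and Mcm6 at -1.14 (SE 0.129, adjusted p = 0.000183, edgeR). Their summed level was 438.6, 449.8 and 542.7 CPM under PBS and 292.9, 251.8 and 269.2 under NRG1. In Lgr5med cells 3 of 11 fell, beside 5.79% of all genes, led by Cdc6 at -0.98 (adjusted p = 0.00496) and Mcm7 at -0.65 (adjusted p = 0.0379), with a median of -0.47. None of the 4 lists held a called gene in Lgr5low or Lgr5neg cells by edgeR. At an unadjusted p under 0.05 the counts in Lgr5low cells were 0 of 20, 4 of 15, 3 of 18 and 3 of 11, beside 13.5% of all genes. In Lgr5neg cells they were 3 of 18, 1 of 15, 2 of 18 and 0 of 10, beside 10.6% of all genes.

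**Figure D5:**
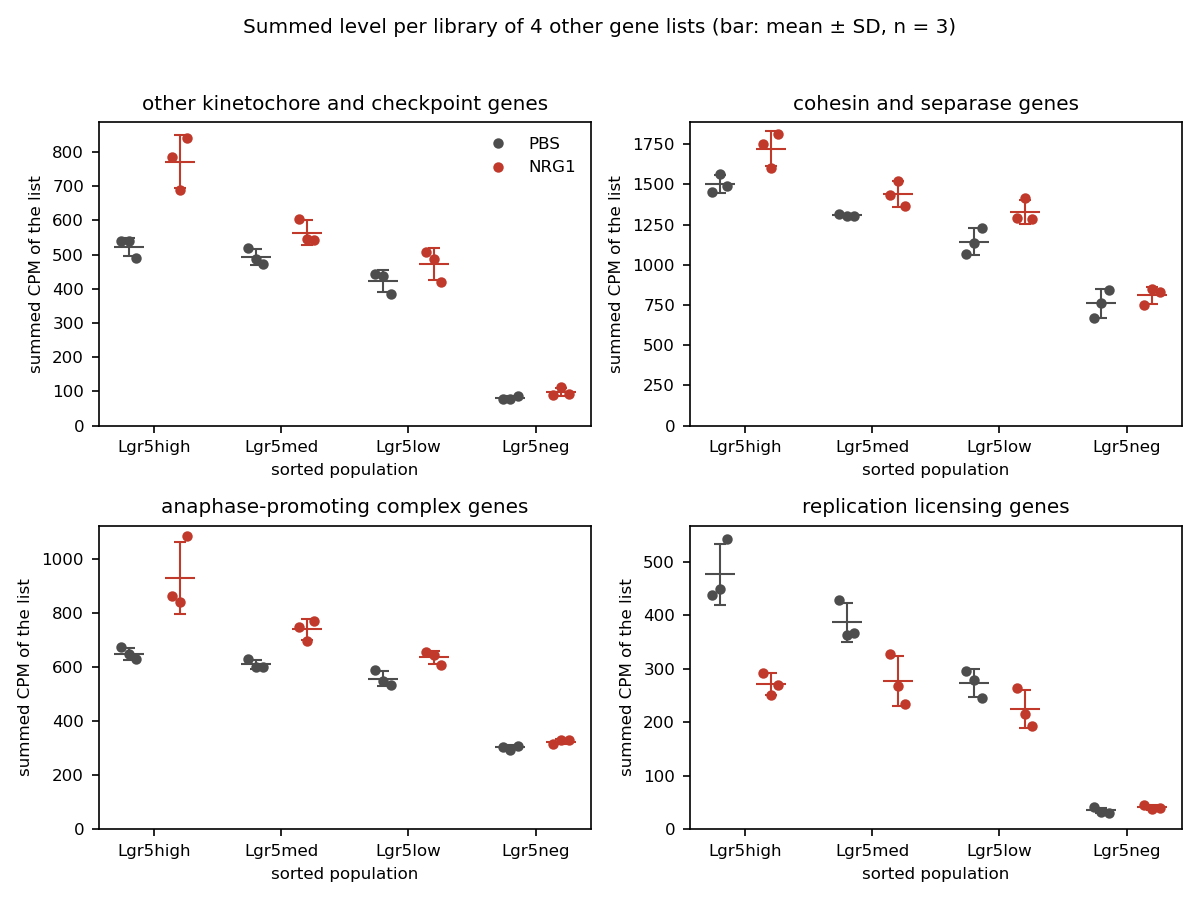
Summed CPM (vertical axes, from 0) of 4 further gene lists in each library, by sorted population (horizontal axes) and treatment (grey PBS, red NRG1); points are libraries and bars are mean ± SD of 3. In Lgr5high cells the sum of 20 other kinetochore and checkpoint genes is higher under NRG1 (689.1 to 842.2 against 491.2 to 538.6), and that of the 11 licensing genes is lower (251.8 to 292.9 against 438.6 to 542.7).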

How the data were processed

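Each of the 24 libraries started from 15 ng of RNA (NuGEN Ovation chemistry, 76 nt single-end reads), per the labels. The authors used STAR for alignment and featureCounts for counting, with GRCm38, per the submitters' processing notes. Tool versions, annotation release and strand setting are not given in the sources used here. Values as deposited were raw counts per gene symbol, with no normalisation. All columns belonged to a sample and no library was left out.

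The members, their role groups and the comparison lists were chosen with earlier results of these data known. Tests were fitted in R 4.3.3 with edgeR 4.0.16 (robust quasi-likelihood, TMM scaling, filter at a minimum count of 10 and minimum total of 15), with Benjamini-Hochberg adjustment over all genes tested. DESeq2 1.42.0 was an alternative. The edgeR fits were also run on simulated data with the same spread for every gene. The changes set there were larger than many reported here and spared low-count genes, so such cases were not covered. SE is the absolute log2 change divided by the square root of F. Positions and exon lengths are from GENCODE vM21 on GRCm38, promoters from RefSeq on GRCm38.p6. Comparison lists held 118 symbols, of which 117 were found, 6 under an older symbol.

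Values were given in full for up to 6 rises and 4 falls per treatment comparison, up to 3 called members each way per gate comparison, and the members tested in all gates and called in no treatment comparison by edgeR without the block. The other lists were named by up to 2 genes each way.

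Gates are paired by mouse. Between treatments, deviations from the group means correlated at 0.131 to 0.173 for same-numbered libraries in Lgr5low and at 0.102 to 0.18 in Lgr5neg cells, so the numbers were taken to pair these. In Lgr5high (0.0695 to 0.227) and Lgr5med (0.07 to 0.207) not every pair exceeded 0.1.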

Additional observations from a re-analysis of the deposited data

How the results depend on the processing

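For NRG1 against PBS in Lgr5high cells (17 rises), the count was 8 in the 15-week-old mice alone, 10 with all 24 libraries in 1 model, and 9 to 18 with 1 library left out. In Lgr5med cells (9 rises, 1 fall) it was 4 and 0 in the 15-week-old mice alone, 5 and 0 with all 24 libraries in 1 model, and 3 to 8 rises and 0 to 1 falls with 1 library left out. With the replicate block it was 19 in Lgr5high cells and 12 rises and 2 falls (Spc25 and Cdca8) in Lgr5med cells. In these 2 gates 5 of 6 PBS libraries correlated best with the NRG1 library of their own number, and replicate 3 is the younger mouse in both treatments. Not every pair passed the limit taken for pairing, a limit that some libraries of the same mouse also missed. In Lgr5low cells (1 rise) DESeq2 called 3, no low-count filter 3, the replicate block 5 and the 15-week-old mice alone 0, with 0 to 1 when leaving out 1 library. In Lgr5neg cells (0) no filter called 1, the replicate block 1 and all 24 libraries in 1 model 3.

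Between Lgr5high and Lgr5med cells of NRG1 mice (5) DESeq2 called 10, no filter 9 and the replicate block 9, with 0 to 8 when leaving out 1 library. Between Lgr5med and Lgr5low cells (0) the counts in PBS mice were 2 by DESeq2, 2 with no filter, 4 with the replicate block and 0 to 2 leaving out 1 library, and in NRG1 mice 1 by DESeq2, 1 with the replicate block and 0 to 1 leaving out 1 library. The replicate block changed no other count by more than 1.5 times. No alternative run reversed the direction of a member named because it was called. The directions of the other members were not compared. Smaller sets of mice reduce the samples tested; otherwise the cause was not tested. Members named because they were called gave 349 values under alternatives. Of these, 306 kept the call and 43 lost it, 35 of the latter when a library was left out. Uncalled members were not in this tally, so it cannot hold a gained call. It includes the calls between Lgr5low and Lgr5neg cells, none of which was lost. RLE scaling, leaving out mitochondrial ribosomal RNA and age as a term moved no count by more than 1.5 times. Counts of 5 or fewer limit members in Lgr5neg libraries.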
